A study of Triticum turgidum subsp. durum with 8 samples.

Results

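The small RNAs described here are the entries of the deposited miRNA list whose family number lies between miR1117 and miR1139, leaving out miR1120, miR1122, miR1128, miR1130 and miR1137, which are the larger wheat families of the same kind. The choice used the family number in the name alone and no measured value. It gave 57 entries with 56 distinct sequences in 12 families (miR1117, miR1118, miR1121, miR1123, miR1125, miR1127, miR1131, miR1133, miR1135, miR1136, miR1138 and miR1139), of 1473 distinct sequences in 129 families in the whole list. The 5 larger families hold 420 sequences. Only 53 different sets of values stand behind the 56 sequences, because the 3 sequences named tae-miR1131_L+3R-1_1ss21TG (suffixes 1 to 3, different at the 5′ end) carry the same 8 values and so do both forms of bdi-miR1139_L-1R+4_1ss11CG. A further sequence is named after miR1127a and after miR1135, and its values enter the totals of both families.

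Small RNA was sequenced from seedling shoots of durum wheat (Triticum turgidum subsp. durum) at 3 weeks. DBA Aurora (Au in the library names) is the genotype described as tolerant of water-deficit and heat stress, and L6 is a breeding line described as sensitive to it. CG marks seed from control parents and WH seed from parents that had been under water deficit and heat. C marks progeny given complete nutrients and N marks progeny given the same solution with the nitrogen left out. Every combination of the 3 factors is 1 library made from the pooled RNA of 6 plants, so no condition has a replicate library. A main effect below compares 4 libraries with 4 others that match them in the remaining factors, and its error holds the differences between those pairs as well as technical spread.

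Levels are normalized reads counts, the unit of the deposited table. The step between low values, which estimates what 1 read is worth, was 0.649 (L6WH_N) to 1.57 (AuCG_N), and values below 5 reads were almost never listed. A value of 0 therefore means not listed, with a floor of 3.25 (L6WH_N) to 7.84 (AuCG_N) normalized reads. The libraries summed to 1072420 (L6WH_C) to 1555730 (AuCG_N) normalized reads over distinct sequences and listed 738 (AuCG_N) to 1181 (L6WH_N) of them.

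Miniature inverted-repeat transposable elements (MITEs) are short DNA transposons that cannot move on their own and end in terminal inverted repeats, so that a transcript through one folds back into a long hairpin. In grasses such hairpins are cut into small RNAs of the length typical of canonical miRNAs and into longer ones of the length that guides DNA methylation. Several wheat families with numbers in this range, miR1123 among them, have been described as MITE-derived, and their annotation as miRNAs rests on miRBase entries.

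Short stretches of sequence were shared between families. The letters ACGGAGGGA, or TCCCTCCGT on the other strand, resemble the terminal inverted repeat of Stowaway MITEs. The following 24-nt small RNAs are shown because abundant sequences of different families carried these 9 letters, which are in capitals.
tae-MIR1127a-p3_1ss11CG: caagtaattcggaACGGAGGGAgt
tae-miR1127b-3p_L-1R+4_1ss12TC: caagtatttccggACGGAGGGAgt
tae-MIR1136-p5_1ss12CG: TCCCTCCGTtcggaattacttgtc
tae-MIR9668-p3_1ss7TC: TCCCTCCGTccggaaatacttgtc
The topmost sequence is also the one named tae-MIR1135-p3_1ss11CG, and tae-MIR9668-p3_1ss7TC belongs to another family and is given as a partner. Placed with 2-base 3′ overhangs at both ends, as in a small RNA duplex, tae-MIR1127a-p3_1ss11CG and tae-MIR1136-p5_1ss12CG paired over 22 bases with 1 mismatch. The same placement of tae-miR1127b-3p_L-1R+4_1ss12TC and tae-MIR9668-p3_1ss7TC gave 22 bases with 0 mismatches. In the deposited table the partners of each pair come from different hairpins. Searched on both strands, the 9 letters occurred in 8 of the 56 sequences, which held 31.8% of the summed level of the 12 families. Over all 1473 sequences they occurred in 268 (18.2%), and in the larger wheat families in 121 of 420 (28.8%).

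A second shared stretch, ACCGGTTCGT or ACGAACCGGT on the other strand, joined miR1117 with miR1131. These sequences are shown because the stretch, in capitals, was found in no other family of the list.
tae-miR1117_L+1R-1: ttagtACCGGTTCGTggcacgaac
tae-miR1131_L+1R+1: ttagtACCGGTTCGTggctaacct
tae-miR1131_L+3R-1_1ss21TG_2: cattagtACCGGTTCGTggcgaac
tae-MIR1131-p3_2ss22GA24TC: ccACGAACCGGTactaatgagagc
It occurred in 10 of the 56 sequences, 10.8% of their summed level, and in 0.679% of all sequences in the list, these 10 being all of them. The shared stretch did not go with a shared level. The mean over 8 libraries was 2075 for tae-miR1117_L+1R-1 and 15.9 for tae-miR1131_L+1R+1.

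The last shared stretch, TAGATACAT or ATGTATCTA on the other strand, was shared by miR1133 and miR1136 and is in capitals here to show that it lay on opposite arms in the abundant member of each.
tae-MIR1133-p5: aaatggATGTATCTAgcactaact
tae-MIR1136-p3_1ss13AG: attttagttcTAGATACATccatt
tae-MIR1133-p3_1ss5CG: gcTAGATACATtcatttgagggac
It occurred in 6 of the 56 sequences and in 10 of the 1473 (0.679%). In tae-MIR1136-p3_1ss13AG the G of the stretch is the substituted base in its name, and the hairpin given in the deposited table has an A at that place of the arm. These stretches were picked for being shared, so the counts describe them and no test was made. A match of letters is not a binding or cleavage site.

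The members with a genome position map to 45 hairpins of the 1170 in the table, on 14 records of the durum wheat genome assembly Svevo.v1, and the hairpins were 58 to 218 nt long with a median of 113. No assignment of these records to chromosomes or to genes was used here. As a check of the MITE-like label, the Stowaway-like letters were found on either strand in 14 of the 45 hairpins (31.1%), against 343 of 404 hairpins of the larger families (84.9%) and 599 of all 1170 (51.2%). They stood on both strands, as an inverted repeat would, in 7 of the 45 (15.6%). That was so in 167 of the 404 hairpins of the larger families (41.3%) and in 288 of all 1170 (24.6%). In the 721 hairpins outside both sets the letters were found on either strand in 242 (33.6%) and on both strands in 114 (15.8%). The miR1117 and miR1131 stretch was in 11 of the 45 hairpins and on both strands in 8, against 0 of 404 hairpins of the larger families and 0 of the 721 others. The miR1133 and miR1136 stretch was in 19 of the 45 (42.2%), in 187 of the 404 hairpins of the larger families (46.3%) and in 320 of the 1170 (27.4%). In the 721 others it was in 114 (15.8%). By this measure the 12 families carried the Stowaway-like ends in a smaller share of hairpins than the larger families did. Their share was close to that of the 721 others. MITE-like therefore stands here for the family numbers and not for a shared terminal repeat.

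Hairpins of MIR1123, MIR1125 and MIR1136, whose arms are compared library by library further on, are shown as the deposited table gives them, 5′ to 3′, with the positions of the 5p and 3p small RNAs in capitals. The arms are marked where they were annotated, and not all of them face each other. In MIR1136 the 5p arm lies at bases 4 to 27 and the 3p arm at bases 52 to 75 of 107. Their best complementary alignment was 16 bases with 10 mismatches.
MIR1123 (LT934120.1:437751807-437752024, plus strand): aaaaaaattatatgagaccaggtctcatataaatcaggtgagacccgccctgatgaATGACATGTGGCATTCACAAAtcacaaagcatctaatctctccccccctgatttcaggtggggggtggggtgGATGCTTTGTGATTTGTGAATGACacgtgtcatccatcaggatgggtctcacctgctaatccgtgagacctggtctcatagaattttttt
MIR1125 (LT934112.1:88956402-88956541, plus strand): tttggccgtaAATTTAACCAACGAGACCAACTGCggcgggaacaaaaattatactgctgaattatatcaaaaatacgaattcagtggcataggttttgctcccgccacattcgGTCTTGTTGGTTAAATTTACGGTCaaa
MIR1136 (LT934121.1:10607422-10607528, minus strand): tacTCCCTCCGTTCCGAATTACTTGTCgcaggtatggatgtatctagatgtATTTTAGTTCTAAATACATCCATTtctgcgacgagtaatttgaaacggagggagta
The hairpin of MIR1123 was the longest of the 45, folded at -153.2 kcal per mol in RNAfold and had 87.2% of its bases paired. Per 100 nt that was -70.3 kcal per mol, and the 45 hairpins ranged from -23.2 (miR1118) to -86.5 (a hairpin of miR1131). The small RNAs themselves were these, in lower case where no stretch is marked and with the run of 17 complementary bases of the miR1125 arms in capitals.
tae-MIR1123-p5: atgacatgtggcattcacaaa
tae-MIR1123-p3_1ss23AC: gatgctttgtgatttgtgaatgcc
tae-MIR1125-p5: AATTTAACCAACGAGACcaactgc
tae-MIR1125-p3_2ss5TC20CT: GTCTCGTTGGTTAAATTtatggtc
Several sequences differ from the hairpin that the deposited table gives for them. A substitution in a name need not be such a difference, since tae-MIR1133-p3_1ss11CA and tae-MIR1127b-p5_2ss5TC23CA were found in their hairpins without change. No genome sequence was searched here. Of the 23 entries that the authors placed in Group 1, where the reads match a miRBase miRNA and its precursor maps to the genome, 6 were found in their hairpin without change, 13 with 1 substitution and 4 with more. All 32 entries of Group 2, where the reads and not the miRBase precursor map, were found without change. In none of the 11 hairpins with both arms in the list did the arms align with 2-base 3′ overhangs on both sides. On the record that holds the MIR1125 hairpin, the hairpin of tae-MIR1133-p5_2ss13GA22AG lay 405 bases away on the opposite strand. On another record the hairpin of tae-MIR1127b-p5_2ss19CA21AC overlapped one of miR1128.

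The level of the 12 families rested on few sequences. The 22 sequences of Group 1 held 98.5% of the summed level, and 21 of them were listed in all 8 libraries. The 32 sequences of Group 2 held 1.40%, and 9 of them were listed in all 8. Of the other 2, 1 was in Group 3 and 1, without a genome position, in Group 4. In all, 30 of the 56 sequences were listed in every library and 2 in 1 library alone. The 12 families together summed to 17143 (AuWH_C) to 24713 (L6WH_C) normalized reads. That was 1.32 to 1.65% of the library in 7 libraries and 2.30% in L6WH_C, whose library total was the lowest.

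The most abundant family was miR1135. Its total in DBA Aurora was 6061 in AuCG_C, 5455 in AuCG_N, 5008 in AuWH_C and 5385 in AuWH_N, and in L6 it was 5365 in L6CG_C, 6714 in L6CG_N, 8104 in L6WH_C and 5811 in L6WH_N. Its 5p member, tae-MIR1135-p5_1ss16TA, is 21 nt long (attacttgtctcggaaatgga). It stood at 2832, 2280.0, 2549 and 2634 in AuCG_C, AuCG_N, AuWH_C and AuWH_N, and at 2761, 4720.2, 4755 and 2720.4 in the L6 libraries in the same order. The level of this sequence was thus high in a pair of L6 libraries that share neither parental nor progeny treatment, and within a narrow range in the other 6.

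Family miR1127 came next, with a mean of 5074 over 14 sequences, of which the sequence it shares with miR1135 and tae-miR1127b-3p_L-1R+4_1ss12TC made up nearly all. The shared sequence stood at 3229 in AuCG_C, 3175 in AuCG_N, 2459 in AuWH_C and 2752 in AuWH_N, and at 2604 in L6CG_C, 1993 in L6CG_N, 3349 in L6WH_C and 3090.3 in L6WH_N. tae-miR1127b-3p_L-1R+4_1ss12TC stood at 2236, 2099.7, 2080.2 and 1936 in the DBA Aurora libraries and at 1988, 1203, 2408 and 1829 in those of L6, in the same order. The most abundant 5p sequence of the family, tae-MIR1127a-p5_1ss19AG, stood at 155, 140.3, 114 and 161 in DBA Aurora and at 98.4, 199, 279 and 219.9 in L6. Both 3p sequences were lowest in L6CG_N and highest in L6WH_C, whereas the 5p member of miR1135, from the same hairpin as the 3p one, was close to its maximum in L6CG_N.

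Family miR1117 consisted almost wholly of tae-miR1117_L+1R-1. This sequence stood at 2749 in AuCG_C, 2218 in AuCG_N, 1971 in AuWH_C and 1981 in AuWH_N, and at 2098 in L6CG_C, 948 in L6CG_N, 2491 in L6WH_C and 2142 in L6WH_N. L6CG_N was again the lowest library. Its 3p arm, tae-MIR1117-p3_2ss12AT20CG, stood at 15.2, 18.8, 36.8 and 14.3 in DBA Aurora and at 32.3, 4.88, 25.9 and 17.5 in L6, also lowest in L6CG_N. The highest total of miR1117 was 2.90 times the lowest, against 1.43 to 2.41 times in the 10 other families apart from miR1131. Family miR1131, which shares a stretch with miR1117, was of low level. Its 15 sequences summed to 234 in AuCG_C, 154 in AuCG_N, 122 in AuWH_C and 177 in AuWH_N, and to 136 in L6CG_C, 52.7 in L6CG_N, 122 in L6WH_C and 181 in L6WH_N. This family had the widest range, 4.45 times between L6CG_N and AuCG_C. Its most abundant 5p sequences, the 3 named tae-miR1131_L+3R-1_1ss21TG with 1 shared set of values, stood at 36.7, 23.5, 21.04 and 27.5 in DBA Aurora and at 22.6, 6.83, 10.8 and 26.6 in L6.

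Families miR1123, miR1136 and miR1125 had mean totals of 3502, 2588 and 1414. Their members are described with the arms below. Among the families of lower level, miR1139 (mean 552), miR1133 (530), miR1118 (520), miR1121 (374) and miR1138 (316) spanned 1.88 to 2.41 times from lowest to highest library. Within the 12 families the lowest total was in AuWH_C for 7 families and in L6CG_N for the other 5, while the highest was in L6WH_C for 6. The summed level of the 24-nt sequences outside the 12 families was likewise lowest in AuWH_C (15353) and highest in L6WH_C (21797). These extremes are therefore not called particular to the 12 families, and the same count over all families was not made. The counts describe single libraries, and the families with a shared sequence are not independent of each other.

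The arms of the less abundant families differed in which library they peaked in. In miR1133, tae-MIR1133-p5 stood at 265, 339, 239 and 310.1 in AuCG_C, AuCG_N, AuWH_C and AuWH_N and at 236.5, 464, 462 and 368 in the L6 libraries in the same order, so that all but 1 of the L6 libraries lay above the DBA Aurora ones. Its 21-nt partner tae-MIR1133-p3_1ss11CA was likewise highest in the same 3 L6 libraries, with 159, 166, 114 and 163, and 159, 217, 226 and 184. In miR1121 both arms are 21 nt long and both peaked in L6CG_N: tae-MIR1121-p5_2ss16TA21TC at 307 against 129 to 180 in the others, and tae-MIR1121-p3_1ss6AG at 273 against 138 to 226.

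The single member of miR1118, tae-MIR1118-p5_1ss8TA (24 nt), had the reverse pattern of miR1121 in L6. It stood at 495, 572, 426 and 529.6 in the DBA Aurora libraries and at 496, 346, 664 and 633 in those of L6, lowest in L6CG_N. In miR1138, tae-MIR1138-p3_1ss5AG stood at 301, 201, 128 and 262 in DBA Aurora and at 176, 136, 225 and 219 in L6, and was lowest in AuWH_C. Its 5p arm, tae-MIR1138-p5_1ss13AC, was at 67.1 in the same library and at 91.6 to 182 in the other 7. The remaining sequences were low: 24 of the 56 had a mean under 10, and these belonged to miR1127, miR1131, miR1133 and miR1139.

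**Figure D1:**
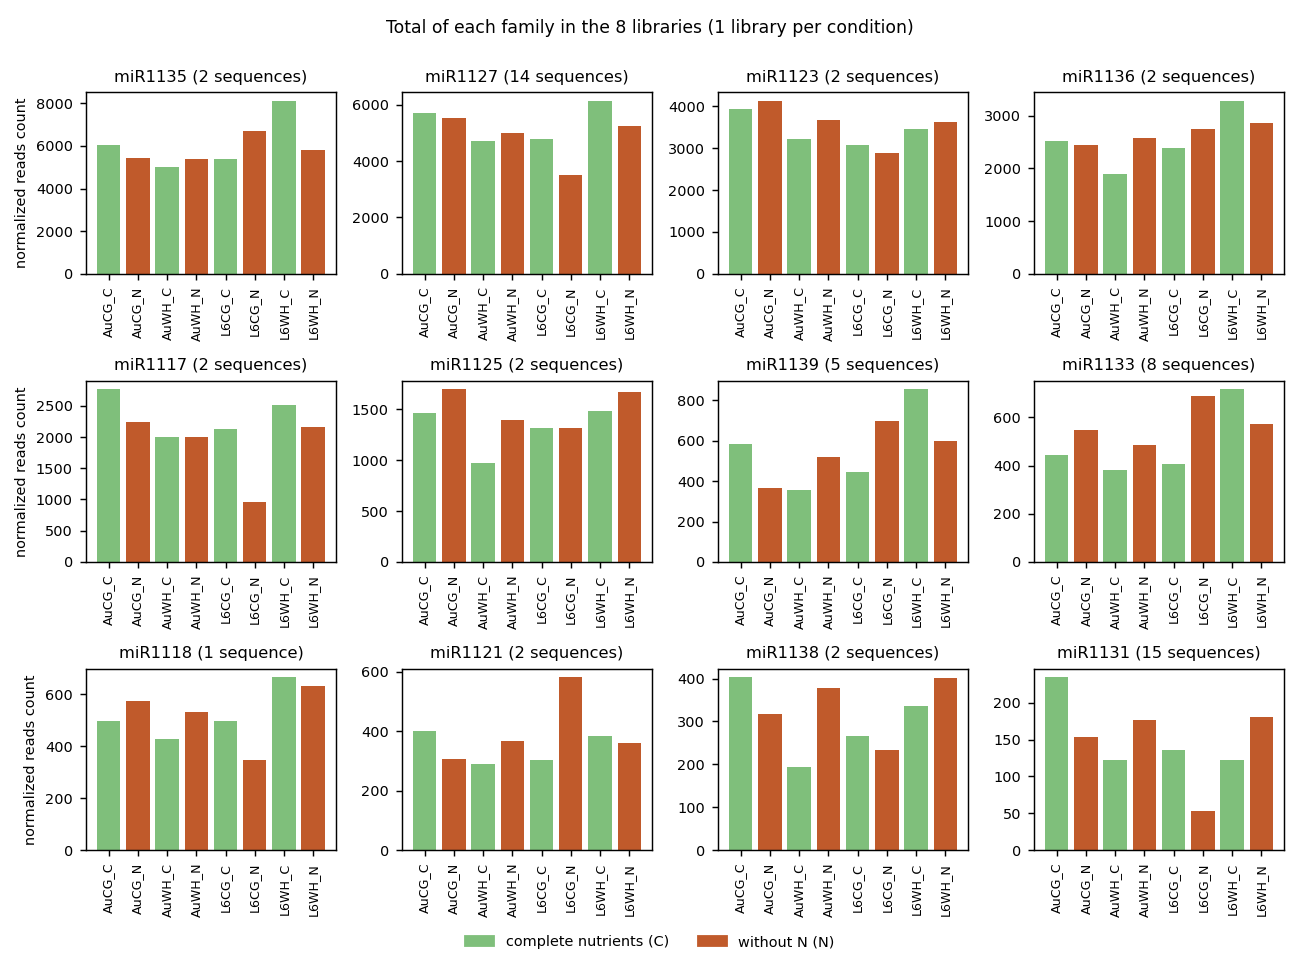
Total normalized reads count of each of the 12 families (vertical axes, each from 0) in the 8 libraries, 1 bar per library, green for complete nutrients and brown for progeny without N. The lowest bar is AuWH_C or L6CG_N in every panel, and L6CG_N is lowest for miR1117 and miR1131, where the ranges are 2.90 and 4.45 times. The 24-nt sequences outside the 12 families (not shown) also had their lowest summed level in AuWH_C.

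Most members were 24 nt long. Of the 56 sequences, 43 were 24 nt long and held 73.8% of the summed level, 12 were 21 nt long with 26.2%, and 1 was 23 nt long. Over the whole list, 24-nt sequences made up 2.51% of the summed level. The 43 sequences were a small part of the 511 of that length but held 44.5% of their summed level, with 40.5% in L6CG_N and 47.0% in AuCG_C as the extremes. The larger wheat families held 24.9% of it. In the 21-nt class, to which most canonical miRNAs belong, the 12 members held 0.540%. Their share of the 24-nt level of the list therefore varied little between libraries, although their own level did not stay constant. The share is of listed sequences only, since 24-nt reads outside the list were not analysed.

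The ratio of the summed 21-nt to the summed 24-nt members was 0.296 in AuCG_C, 0.316 in AuCG_N, 0.327 in AuWH_C and 0.361 in AuWH_N. In L6 it was 0.334 in L6CG_C, 0.567 in L6CG_N (95% interval 0.551 to 0.584, exact binomial, counting error only), 0.368 in L6WH_C and 0.322 in L6WH_N. L6CG_N stood above all other libraries. Without tae-MIR1135-p5_1ss16TA the ratio was 0.172 in L6CG_N and 0.105 to 0.180 over all libraries, so the excess in L6CG_N rested on that sequence together with the low 24-nt total of 11946. With it left out, the 4 libraries without N lay at 0.170, 0.180, 0.172 and 0.151 and the 4 with complete nutrients at 0.127, 0.130, 0.135 and 0.105, in the same order as above. These ranges did not overlap, which was seen only after that sequence had been left out and was not tested. Most of the remaining 21-nt total was tae-MIR1123-p5, with 2112 of 2657 in AuCG_N and 1199 of 1896 in L6WH_C. In the larger wheat families, likewise without their most abundant 21-nt sequence, the ranges overlapped. They were 0.780 to 1.07 without N and 0.804 to 1.04 with complete nutrients. Over the whole list they also overlapped, at 20.5 to 24.9 and 15.3 to 26.5.

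**Figure D2:**
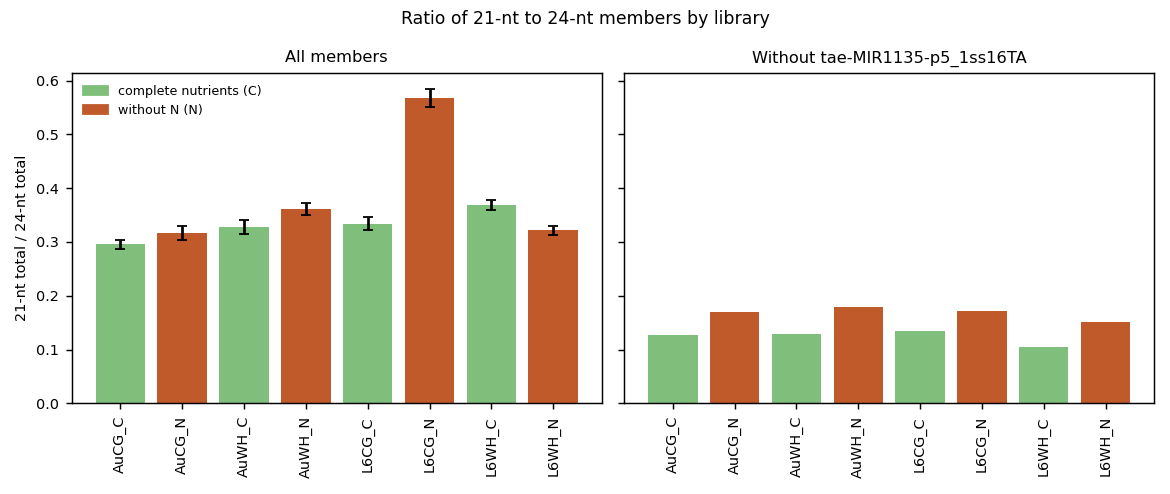
Ratio of summed 21-nt to summed 24-nt members (vertical axis, no unit) in the 8 libraries, with all members on the left and without tae-MIR1135-p5_1ss16TA on the right; bars are single libraries and error bars on the left are 95% exact binomial intervals for counting error. L6CG_N reaches 0.567 on the left and falls among the other libraries, at 0.172, on the right.

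The 2 arms of a hairpin were far from equal in some families and close to equal in others. In miR1117 the 5p arm was 100.2 times as abundant as the 3p arm on the means over libraries (53.5 to 194 in single libraries), and in miR1125 it was 18.9 times as abundant. The upper value of miR1117 is from L6CG_N, where the 3p arm stood at 4.88, the floor of that library. In miR1127a the 5p arm reached 0.0603 of the 3p arm, and in miR1127b 0.00129. The 5p arm of miR1127b was listed in 3 libraries only, and its ratio counts unlisted values as 0. The remaining ratios of means lay between 0.292 (miR1139) and 1.93 (miR1133), with miR1123 at 0.777, miR1121 at 0.878, miR1135 at 1.11 and miR1136 at 1.69. The miR1135 ratio counts the shared 3p sequence as its own.

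The arms of miR1125 differed in opposite directions between progeny treatments. tae-MIR1125-p5 stood at 1385 in AuCG_C, 1638 in AuCG_N, 899 in AuWH_C and 1346 in AuWH_N, and at 1232 in L6CG_C, 1261 in L6CG_N, 1374 in L6WH_C and 1607 in L6WH_N. It was higher without N in 4 of 4 matched pairs, by little in L6 from control parents, and its log2 difference of 0.27 (SE 0.22) did not pass the test (limma, Benjamini-Hochberg adjusted p = 0.422). tae-MIR1125-p3_2ss5TC20CT stood at 78.8, 58.0, 73.6 and 46.9 in the DBA Aurora libraries and at 79.7, 58.5, 113 and 59.1 in those of L6. It was lower without N in 4 of 4 pairs, 55.6 ± 5.86 against 86.2 ± 17.9 (SD, n = 4), with a log2 difference of -0.61 (SE 0.24) and an adjusted p of 0.114 in limma. The ratio of 5p to 3p was 28.2, 28.7, 21.6 and 27.2 in the libraries without N and 17.6, 12.2, 15.4 and 12.2 in their partners with complete nutrients, and these ranges did not overlap. This was 1 of the 10 hairpins of the 12 families with both arms at a mean of 10 or more. Over all 148 such hairpins of the list the ratio was higher without N, with no overlap, in 12.8%, so a count of 1 in 10 is close to the background.

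In miR1123 the 21-nt 5p member was higher without N in 3 of 4 pairs. tae-MIR1123-p5 stood at 1499 in AuCG_C, 2112 in AuCG_N, 1224 in AuWH_C and 1955 in AuWH_N, and at 1342 in L6CG_C, 1159 in L6CG_N, 1199 in L6WH_C and 1759 in L6WH_N. The pair of L6 from control parents went the other way. The 24-nt 3p member, tae-MIR1123-p3_1ss23AC, was lower without N in all 4 pairs, at 2448 and 2016, 2007 and 1714, 1727 and 1726, and 2272 and 1859, the last but one by a difference within counting error. The 5p to 3p ratio was above 1 in AuCG_N (1.05) and AuWH_N (1.14) and below it in the other 6 libraries. Neither arm passed the test, with log2 differences of 0.38 (SE 0.21) and -0.20 (SE 0.18) and adjusted p of 0.272 and 0.492 in limma.

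In miR1136 both arms are 24 nt long and had like patterns over the libraries. tae-MIR1136-p5_1ss12CG stood at 1473, 1590.3, 1286 and 1582 in the DBA Aurora libraries and at 1541, 1792, 1959 and 1773 in those of L6. tae-MIR1136-p3_1ss13AG stood at 1043, 845, 615 and 1003, and at 849.7, 954, 1318 and 1083. Both arms were lowest in AuWH_C and highest in L6WH_C, and their ratio stayed between 1.41 and 2.09.

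**Figure D3:**
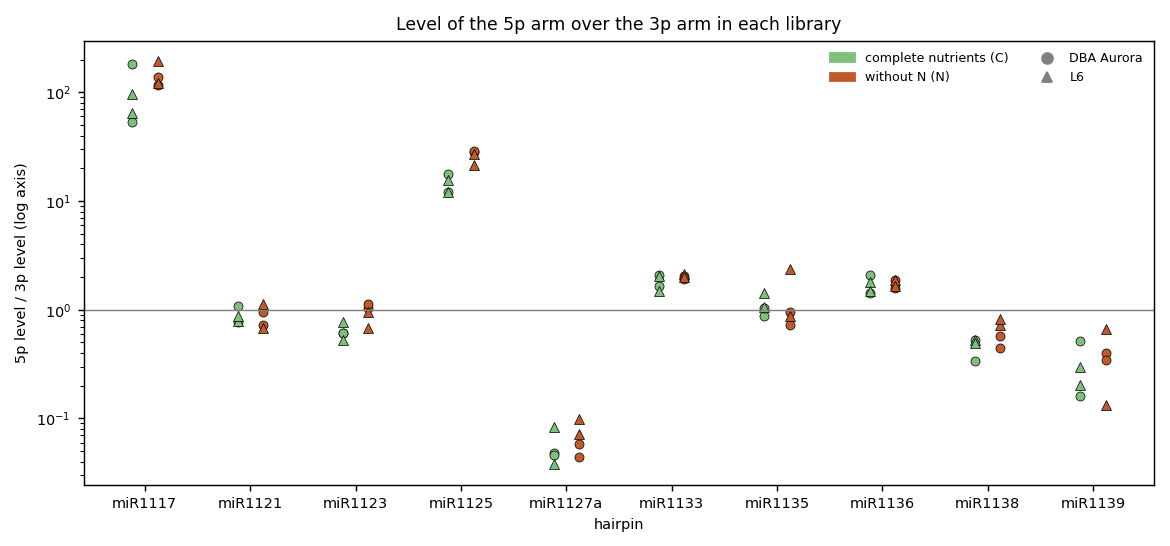
Level of the 5p arm divided by that of the 3p arm (vertical log axis, no unit) for the 10 hairpins with both arms at a mean of 10 or more, 1 point per library, green for complete nutrients, brown for progeny without N, circles for DBA Aurora and triangles for L6. The points of miR1125 separate by progeny treatment (12.2 to 17.6 against 21.6 to 28.7), and those of the other hairpins overlap.

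To ask which members differ with N starvation, a linear model with additive terms for N supply, parents and genotype was fitted to the 605 sequences of the list with a mean of 10 or more, 32 of them members. Without N, 1 of the 32 members was called and was lower, and 0 were called higher. Over all 605 sequences 25.0% were called, with 15.4% of those tested called lower and 9.59% called higher. The member called was tae-MIR1131-p3_2ss22GA24TC, which carries the stretch shared with miR1117. It stood at 23.3 in AuCG_C, 7.84 in AuCG_N, 27.6 in AuWH_C and 17.3 in AuWH_N, and at 21.6 in L6CG_C, 8.78 in L6CG_N, 25.1 in L6WH_C and 12.3 in L6WH_N. Every library without N was below every library with complete nutrients. The means were 11.6 ± 4.29 without N and 24.4 ± 2.60 with complete nutrients (SD, n = 4), and the sequence fell by 1.07 on the log2 scale of the count plus 1 (SE 0.32, adjusted p = 0.0468 in limma). It is a low-level sequence, near 5 reads in AuCG_N, and its adjusted p lay above 0.05 in 11 of 14 alternative analyses (0.0319 to 0.213), all with a negative difference of -1.26 to -0.74.

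Beside it, 3 members reached an unadjusted p under 0.05. One is tae-MIR1125-p3_2ss5TC20CT, described above. The others are both forms of bdi-miR1139_L-1R+4_1ss11CG, which share 1 set of values and differ in the last base, in capitals, shown because the table repeats the same values for both.
bdi-miR1139_L-1R+4_1ss11CG_1: agtaacatagactagtaacatgcA
bdi-miR1139_L-1R+4_1ss11CG_2: agtaacatagactagtaacatgcC
Their level was 13.4 in AuCG_C, 39.2 in AuCG_N, 6.57 in AuWH_C and 27.5 in AuWH_N, and 5.39 in L6CG_C, 6.83 in L6CG_N, 7.90 in L6WH_C and 16.2 in L6WH_N. It was higher without N in 4 of 4 pairs, by little in L6 from control parents, with a log2 difference of 1.16 (SE 0.49) and an adjusted p of 0.144 in limma. The values in AuWH_C and L6CG_C are the floor of 5 reads of these libraries, so the difference rests on low counts. The median difference of the 32 members was 0.09, with 18 of them positive, against -0.06 over all 605 sequences. In the larger wheat families the median was -0.41, and 22 of 100 were called lower and 0 higher. The difference between both sets was not tested.

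For family totals, 25.0% of 104 families were called with N starvation and 0 of these 12 (0 also at an unadjusted p under 0.05). The log2 differences ran from -0.42 (SE 0.28) in miR1117 to 0.27 (SE 0.27) in miR1133. The total of miR1117 was lower without N in 4 of 4 pairs, at an adjusted p of 0.366 in limma. The scale sets where 0 lies: the median of all 104 families was -0.04 as deposited, -0.24 with equal library totals and 0.11 with quantile normalization. Relative to that median, 7 of the 12 families were positive under all 3 scalings and 2 were negative, miR1117 (-0.38, -0.39 and -0.27) and miR1131, while miR1127, miR1135 and miR1139 changed sign.

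**Figure D4:**
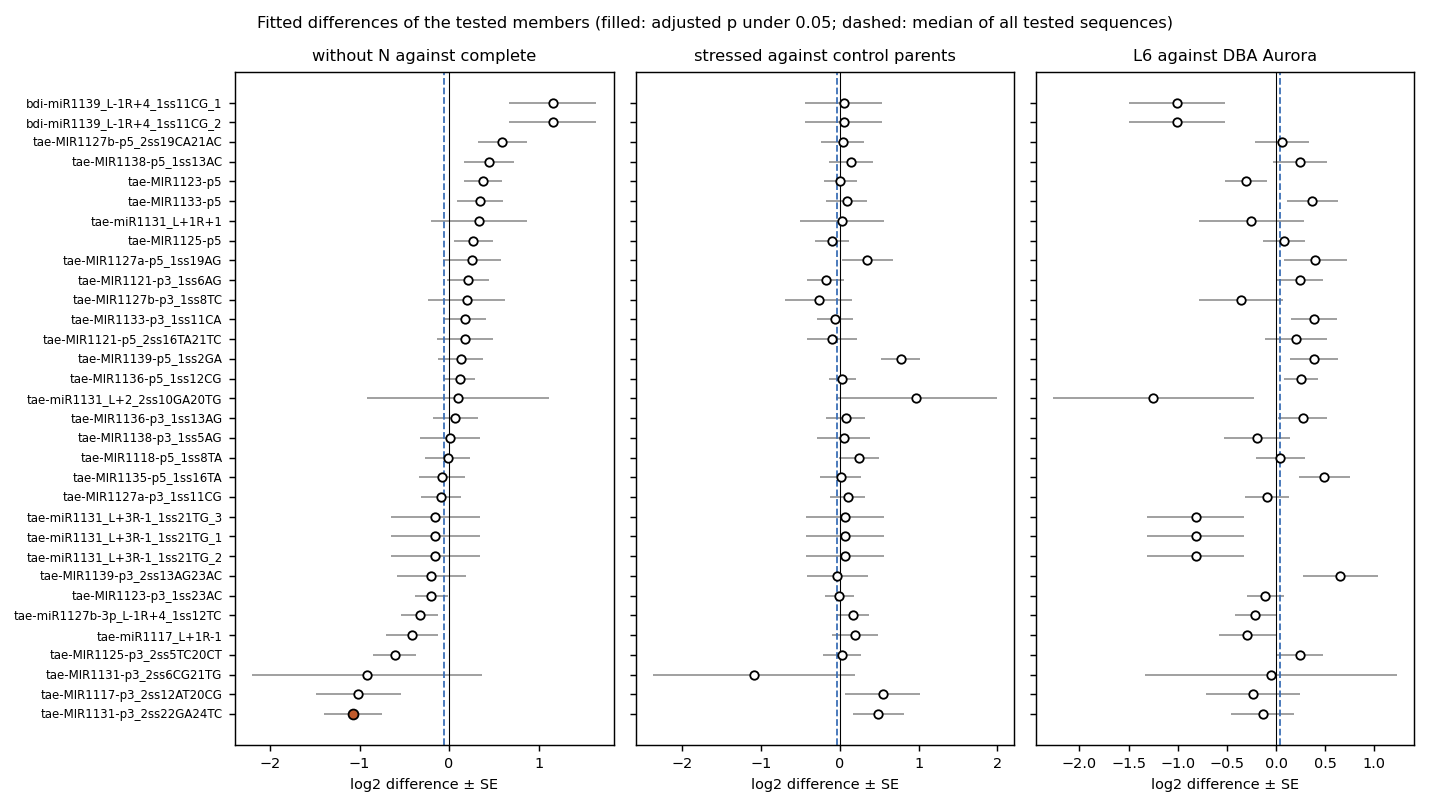
Fitted log2 difference ± SE (horizontal axes, log2 of the normalized reads count plus 1) of the 32 tested members for N starvation, parental stress and genotype, ordered by the N difference; the dashed line is the median of all 605 tested sequences and the filled point is past an adjusted p of 0.05. The filled point is tae-MIR1131-p3_2ss22GA24TC in the N panel, and the median line lies close to 0 in all panels.

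With parental stress, 0 of 32 members and 0 of all 605 sequences (0% of those tested) were called by limma, and 1 member and 10 sequences had an unadjusted p under 0.05. The member was tae-MIR1139-p5_1ss2GA, the 24-nt 5p arm of miR1139. It stood at 77.0 and 81.5 in the DBA Aurora libraries from control parents (C and N) and at 115.7 and 119 in those from stressed parents, and at 99.1 and 80.9 against 141 and 226 in L6. Every library of stressed parents was above every library of control parents, 150.4 ± 51.6 against 84.6 ± 9.88 (SD, n = 4), with a log2 difference of 0.77 (SE 0.25), but the adjusted p was 0.99996 in limma. Its 3p partner, tae-MIR1139-p3_2ss13AG23AC, followed another pattern, with 478, 205, 226 and 343 in the DBA Aurora libraries and 333, 605, 692 and 338 in those of L6, and no main effect on it passed the test. The family totals gave 0 calls of 104 and 0 of 12, with 0 also at an unadjusted p under 0.05.

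Between genotypes, 2.64% of the 605 sequences and 0 of the 32 members were called by limma, and 0 members had an unadjusted p under 0.05. The median difference of L6 from DBA Aurora was -0.07 over the members and 0.04 over all sequences. Of the family totals 2.88% were called and 0 of the 12, whose differences ran from -0.57 (SE 0.39) in miR1131 to 0.50 (SE 0.30) in miR1139. In the larger wheat families 3 of 100 sequences were called.

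Each pairwise interaction was also tested, to ask if an effect differed between levels of another factor. None was called for any of the 605 sequences (0%) in limma, and at an unadjusted p under 0.05 there were 4 members and 10 sequences for parental stress by N starvation, 1 and 34 for genotype by N starvation, and 0 and 19 for genotype by parental stress. These counts take members with 1 shared set of values separately. The forms of tae-miR1131_L+3R-1_1ss21TG share 1 set, with a log2 value of 1.91 for parental stress by N starvation. The miR1131 total gave 1.52 (SE 0.69) there, with an unadjusted p of 0.049 and an adjusted p of 0.979 in limma. The 4 members are therefore not read as a concentration in the 12 families. For genotype by parental stress the log2 value is the effect of parental stress in L6 minus that in DBA Aurora. It was positive in 28 of 32 members with a median of 0.61, against 0.00 over all sequences. The 24-nt sequences outside the 12 families had a like median, 0.53 with 91 of 117 positive, against 0.69 in the 26 tested 24-nt members and 0.12 in the 6 tested 21-nt members. The difference between these sets was not tested, and the shift is not called particular to the 12 families. The larger wheat families had a median of -0.07. In the families it was positive in 11 of 12 with a median of 0.58, against 0.12 over all families. The highest single value in an abundant member was 1.03 (SE 0.48) for tae-miR1117_L+1R-1, with an adjusted p of 0.918. The members' median stayed between 0.42 (without AuWH_C) and 0.86 (without AuWH_N) when each library was left out, a choice made after seeing the data. The median was 0.54 with equal library totals and 0.49 with quantile normalization. The members share hairpins and letters, so 28 of 32 is a description of these libraries.

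The medians of the other interactions depended on single libraries. For parental stress by N starvation the members' median was 0.28, and leaving out 1 library gave values from -0.12 (without AuWH_C) and 0.02 (without L6CG_N) to 0.59 (without AuCG_N or L6WH_C). For genotype by N starvation the median was -0.18, and it became 0.12 without AuWH_C, -0.09 without L6CG_N, -0.44 without L6CG_C and -0.57 without AuCG_C or L6WH_N. Neither median is therefore read as a direction.

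Pairs of libraries that differ in 1 factor were compared with the rule of Fisher's exact test at p under 0.05 and an absolute log2 ratio over 1. This compares the libraries in hand and not the conditions. With N starvation 18 of the 56 members were called between AuCG_N and AuCG_C (44.1% of all sequences), 14 between AuWH_N and AuWH_C (31.4%), 14 between L6CG_N and L6CG_C (35.3%) and 11 between L6WH_N and L6WH_C (32.5%). These counts are below the background in all 4 pairs. With parental stress the counts were 13 for AuWH_C against AuCG_C (background 21.7%), 11 for AuWH_N against AuCG_N (31.2%), 17 for L6WH_C against L6CG_C (31.2%) and 12 for L6WH_N against L6CG_N (22.8%). Between genotypes they were 11 for L6CG_C against AuCG_C (24.3%), 24 for L6CG_N against AuCG_N (41.3%), 24 for L6WH_C against AuWH_C (40.5%) and 2 for L6WH_N against AuWH_N (15.8%). A chi-square test in place of Fisher's gave 6 for the last pair and 19 for L6WH_N against L6CG_N. Of the 13 calls for AuWH_C against AuCG_C 10 were lower, where 13.4% of all sequences were called lower, and of the 17 for L6WH_C against L6CG_C 16 were higher, where 24.0% of all sequences were called higher. The calls over all sequences leaned the same way, with 198 lower and 122 higher in the former pair and 107 lower and 353 higher in the latter, and the members called were 5 and 3 when 10 or more normalized reads were asked for in at least 1 of the compared libraries. Of the 171 calls, 64 were in members with a mean of 10 or more, and the others in members of a lower mean.

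Calls of members with 100 or more normalized reads in at least 1 of the compared libraries are given with exact binomial 95% intervals for counting error on the log2 ratio. tae-miR1117_L+1R-1 was lower in L6CG_N than in L6CG_C by a log2 ratio of -1.15 (-1.26 to -1.03), lower than in AuCG_N by -1.23 (-1.35 to -1.11), and higher in L6WH_N than in L6CG_N by 1.18 (1.07 to 1.28). All of these calls involve L6CG_N. tae-MIR1121-p5_2ss16TA21TC, a 21-nt sequence with 307 normalized reads in L6CG_N and 129 to 180 elsewhere, was called in the same 3 pairs in the opposite direction, with log2 ratios of 1.20 (0.90 to 1.51), 1.26 (0.90 to 1.63) and -1.08 (-1.34 to -0.83). tae-MIR1135-p5_1ss16TA was called once, 1.05 (0.96 to 1.14) higher in L6CG_N than in AuCG_N. tae-MIR1139-p3_2ss13AG23AC was called in 6 of the 12 pairs, with 1.61 (1.38 to 1.86) for L6WH_C against AuWH_C as the largest log2 ratio. The 5p arm, tae-MIR1139-p5_1ss2GA, was called once, 1.48 (1.13 to 1.84) higher in L6WH_N than in L6CG_N.

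tae-MIR1127a-p5_1ss19AG was higher in L6CG_N (1.01, 0.65 to 1.39) and in L6WH_C (a fold of 2.84, with a log2 interval of 1.17 to 1.85) than in L6CG_C, and higher in L6WH_C than in AuWH_C (1.30, 0.96 to 1.65). tae-MIR1138-p3_1ss5AG was called in both pairs of AuWH_C within DBA Aurora, with -1.24 (-1.58 to -0.91) against AuCG_C and 1.04 (0.69 to 1.39) for AuWH_N against it. tae-MIR1136-p3_1ss13AG was called once, 1.10 (0.95 to 1.25) higher in L6WH_C than in AuWH_C. The last member at this level was tae-MIR1127b-p5_2ss19CA21AC, 1.16 (0.61 to 1.74) higher in AuWH_N than in AuWH_C.

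The medians of the 24-nt and 21-nt members lay apart in L6CG_N. Against L6CG_C the median log2 ratio was -0.38 in the 24-nt and 0.58 in the 21-nt members with a mean of 10 or more, while other 24-nt sequences of the list had a median of -0.01. Against AuCG_N the medians were -0.62 and 0.56, with -0.19 in other 24-nt sequences. From L6CG_N to L6WH_N they were 0.78 and -0.31, with 0.28 in other 24-nt sequences. In the pair AuWH_N and AuWH_C, by contrast, both lengths were on the same side (0.37 and 0.47). All 3 differences rest on the same library, L6CG_N, for which there is no replicate. Length did not mark every member there: tae-MIR1133-p5, of 24 nt, was at its highest in L6CG_N with 464. The 21-nt tae-MIR1123-p5 was at its lowest there with 1159. Several other 24-nt members also stood higher in L6CG_N than in L6CG_C, among them tae-MIR1139-p3_2ss13AG23AC, tae-MIR1127a-p5_1ss19AG and both arms of miR1136. Other 21-nt sequences of the list were not compared.

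**Figure D5:**
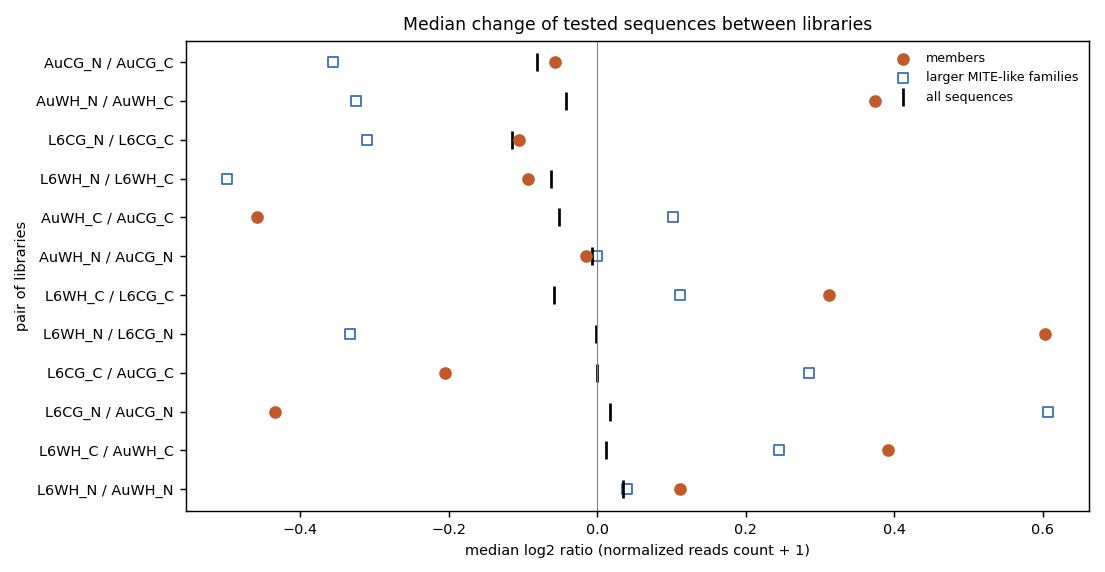
Median log2 ratio of the count plus 1 (horizontal axis) for each of the 12 pairs of libraries (vertical axis, compared library / baseline), as filled circles for the 32 members, open squares for the larger wheat MITE-like families and bars for all 605 sequences with a mean of 10 or more. The members' medians run from -0.46 (AuWH_C / AuCG_C) to 0.60 (L6WH_N / L6CG_N) while those of all sequences stay close to 0, and the open squares lie below 0 in all 4 N starvation pairs.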

How the data were processed

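Small RNA libraries were made from pooled RNA (TruSeq small RNA kit, single-end reads of 50 bp). The authors filtered the reads, ran ACGT101-miR with miRBase entries and the Svevo.v1 genome to annotate miRNAs, and folded candidate precursors. The signal values in the deposited table are normalized reads counts per miRNA entry that the authors' program wrote. The scaling factors behind them are not given in the sources used here. Entries with the same sequence were counted once. Family totals are sums over distinct sequences of a family number.

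The main tests were fitted with limma 3.58.1 in R 4.3.3 on log2 of the value plus 1, for 605 sequences or 104 families with a mean of 10 or more, with a mean trend and Benjamini-Hochberg adjustment over all of them (threshold 0.05). Each interaction was added in turn. Such a fold change understates differences of low sequences. Pairs of libraries were compared with Fisher's exact test, two-sided (SciPy 1.17.1), on rounded values of all 1473 sequences. Other steps used Python 3.11.15, pandas 2.3.3 and RNAfold 2.7.2. Intervals cover counting error only, on reads estimated from the step of each library, since PCR reads are not independent molecules.

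The limma model was tested on simulated data: among 605 sequences, changes of log2 1 were found in 79.1% of cases for N supply, 70.1% for the parents and 73.1% for the genotype, and changes of log2 2 in 100%, 97.0% and 98.5%. Of 405 sequences simulated without a change, it called 4, 5 and 3. The spread of the simulated counts was preset and not estimated from these libraries, and the simulated effects were additive. These shares are therefore not the power of the tests on the data in hand, where the median SE for N supply was 0.357 over the 605 sequences. They do not cover the interactions.

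The text names each family, the most abundant sequences of its arms, every member past the limma threshold, and sequences that share letters with another family or pair with the other arm. Members with an unadjusted p under 0.05 for a main effect, or called between libraries at 100 or more normalized reads, were named after their values were seen. Members with an unadjusted p under 0.05 for an interaction, and the other members called between libraries, are given as counts. Members and lists were chosen with earlier results of these data known. Target predictions and raw reads were not analysed here. The labels name another sequencer model than the study's methods do.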

Additional observations from a re-analysis of the deposited data

Results flagged for a closer look

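Values of the families and of the 21-nt to 24-nt ratio were checked in 84 overlapping groups of 4 libraries for a library far from the other 3, which chance alone would give in about 1 in 20 groups (5%); 2 were found. The total of miR1131 was 234.5 in AuCG_C, while the other 3 libraries with complete nutrients lay between 122 and 136. The ratio of 21-nt to 24-nt members was 0.567 in L6CG_N, while the other 3 libraries from control parents lay between 0.296 and 0.334. Both are single libraries with no replicate, and no cause was tested.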

How the results depend on the processing

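With N starvation, 1 member was called in the main analysis (lower), and the count rested on the settings: it was 3 with quantile normalization and these were all higher (both forms of bdi-miR1139_L-1R+4_1ss11CG at a log2 difference of 2.06, adjusted p = 0.0299 in limma, and tae-MIR1127b-p5_2ss19CA21AC at 0.93, adjusted p = 0.042), 0 without a filter, 0 at a mean of 50 or more and 0 with the matched pairs as a block. Leaving out each library gave 0 to 3, the 3 being higher and found without L6CG_N (both bdi-miR1139 forms at 1.57, adjusted p = 0.0336, and tae-MIR1123-p5 at 0.58, adjusted p = 0.0492). Equal library totals, a pseudocount of 5 and each set of values counted once gave 1. The cause of these differences was not tested. The members called for parental stress, genotype, the interactions and all family totals were 0 under every alternative run. Calls between pairs of libraries numbered 171 in total and 73 when a count of 10 or more in at least 1 of the 2 libraries was asked for, and that total stayed within 1.5 times with estimated reads or a chi-square test, although the latter raised the pair L6WH_N and AuWH_N from 2 to 6 and the pair L6WH_N and L6CG_N from 12 to 19. The edgeR test on recovered reads was not run, since 95.1 to 97.4% of low values were whole multiples of the step (within 0.02). The matched pairs come from the design, since the labels give no replicate numbers. With 1 pooled library per condition, differences of sequences near 5 reads are not resolved.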

Other observations

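The first base of the 24-nt members was evenly spread, with A in 11, C in 11, G in 11 and T in 10 of 43. Of the 12 members of 21 nt, 8 began with T, but those beginning with A held 88.2% of their summed level. Among 24-nt members, 6 of 43 had a partner in the list that could pair with at most 1 mismatch and 2-base 3′ overhangs, against 92 of 177 (52.0%) in the larger wheat families and 155 of 511 (30.3%) over all 24-nt sequences. These values are descriptions of the deposited list, and no test was made on them.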
